A study of Arabidopsis thaliana with 12 samples.

Results

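The genotype dependence of the heat response is the difference between how strongly heat changed each transcript in an msh1 recA3 double mutant of Arabidopsis thaliana and how strongly it changed the same transcript in the wild type, Col-0, in whose background the mutant was made. It was computed for each probe set as the heated minus the untreated level of the double mutant, minus the same for the wild type, on the log2 scale. All 12 of the 12 Affymetrix arrays entered it: 2 of the untreated wild type, 3 of the heated wild type, 4 of the untreated double mutant and 3 of the heated double mutant. All 22746 probe sets other than the Affymetrix controls were tested, and 13513 of these have exactly 1 gene in the annotation. A positive value means that heat moved the transcript further up, or less far down, in the double mutant, and a negative value the opposite.

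RNA came from the above-ground parts of soil-grown plants 8 weeks old, kept at 24 °C with days of 8 h and then of 16 h. Heated plants of both genotypes were held at 37 °C, for 2 h according to the sample names and the design text and for about 24 h according to the treatment protocol, so the length of the heat is not settled by the labels. The double mutant carries its mutations, whose alleles the labels do not name, in every cell, and no single mutants were among the arrays, so the contributions of the 2 genes cannot be told apart. The labels call the arrays biological replicates and do not say how many plants stand behind each.

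MSH1 and RECA3 are nuclear genes whose proteins act in organelles, where they hold back recombination between short repeats of the mitochondrial DNA, and MSH1 also acts in plastids. Heat in plants induces chaperones through heat shock factors. Impaired mitochondria send a signal to the nucleus that raises a set of transcripts known as the mitochondrial dysfunction genes, among them alternative dehydrogenases, the oxidative stress marker UPOX and several transporters. A transcript can show a difference of responses when the genotypes differ before heat and meet after it, when they are alike before heat and part after it, or when both occur, and the levels in all 4 groups tell these apart.

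Heated and untreated arrays separated on the first principal component, with 71.1% of the variance, and the genotypes on the second, with 10.2%. On the second component heated double mutant replicate 3 scored 8.73, away from the other arrays of its group at -22.5 and -26.8 and nearer to the heated wild type at 13.5 to 16.3, so results are also given without it. The untreated double mutant was spread out too, with -2.95 and -0.964 for replicates 1 and 2 against -22.9 and -30.9 for replicates 3 and 4. Signals of RMA have a floor: the lower quartile of the arrays lay at 3.67 to 3.79 and the median at 5.03 to 5.27, while the brightest probe set of an array reached 13.44 to 13.97. No detection calls were used, so a group was taken as at the floor when its mean was under the lower quartile, a convention, and the array median served as a stricter one. At least 1 group was at the floor for 6615 probe sets, 29.1% of all, and 45.3% had no group under the array median. Both leaf markers measured under a name, RCA and LHCB4.1, were near the top of the range on every array, at 13.20 to 13.85 and 13.02 to 13.43. The root marker PYK10, a myrosinase-type beta-glucosidase, was the only one of 10 listed root markers measured under a name. It read 7.47 to 8.88 in the untreated double mutant and 5.94 to 6.82 on all other arrays, and its part in the results was not tested.

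The difference of responses passed the test at an adjusted p under 0.05 (limma with Benjamini-Hochberg adjustment over all probe sets) for 17 probe sets, or 0.0747% of those tested. Heat moved 5 of them (0.022% of all) more positively and 12 (0.0528%) more negatively in the double mutant. By comparison, heat changed 6027 probe sets (26.5%) in wild-type plants and 7725 (34%) in the double mutant, and the genotypes differed at 613 (2.69%) without heat and at 204 (0.897%) after it. These comparisons share arrays with each other and with the difference of responses. An unadjusted p under 0.05 was found for 2372 probe sets, or 10.4%, and one under 0.001 for 110, of which 25 were positive and 85 negative. The median difference over all probe sets was -0.03, with deciles at -0.43 and 0.26, and only 203 probe sets reached a size of 1. In the plot of one response against the other most transcripts therefore lie close to the line of equal responses. The split of directions moved with the scaling: 4 positive and 5 negative calls after quantile normalization between arrays, 5 and 5 with arrays centred on their median, and 9 and 4 with arrays centred on 5 reference genes, which shifted the median of all probe sets to 0.15.

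**Figure D1:**
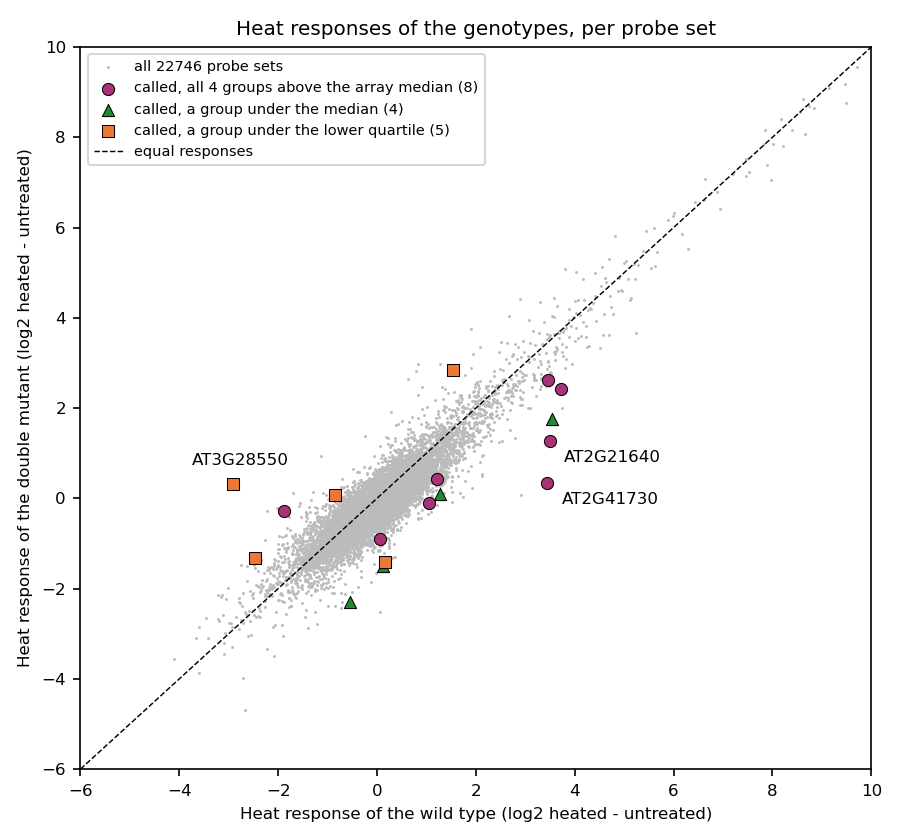
Each point is 1 of 22746 probe sets, placed by its log2 heat response in the wild type (horizontal) and in the double mutant (vertical), with the dashed line marking equal responses. The 17 probe sets that passed the test are drawn large: 8 with all group means above the array median, 4 with a group between the lower quartile and the median, and 5 with a group under the lower quartile.

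For 10 of the 17 the difference between the genotypes passed the test in the untreated arrays and did not pass it after heat, although for UPOX, AT3G03270, AT2G03130 and 261192_at among them the heated arrays of the genotypes did not overlap. For 3 the genotypes differed in the same direction at both times with a smaller gap after heat. They differed in opposite directions before and after heat for 2, and for the remaining 2 the test was passed after heat and not before it. In the untreated arrays 11 of the 17 were higher and 4 lower in the double mutant, whereas after heat 4 were higher, 3 lower and 10 did not pass the test. At least 1 group was at the floor for 5 of the 17 and none for 12, against 29.1% of all probe sets with at least 1. No group was under the array median for 8, against 45.3% of all, and of these 8, 7 were negative and 1 positive. Both counts were thus near the shares over all probe sets. Since the arrays measure RNA of whole shoots, a lower level cannot be told apart from fewer cells of the type that holds the transcript.

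The leading negative differences belonged to transcripts of mitochondrial dysfunction, which were higher in the double mutant before heat than in the wild type. The uncharacterised gene AT2G41730, one of the mitochondrial dysfunction genes, read 6.31 and 5.80 in the untreated wild type, 9.45, 9.35 and 9.68 in the heated wild type, 10.20, 10.26, 10.39 and 10.33 in the untreated double mutant and 10.38, 10.35 and 11.17 in the heated double mutant. The untreated double mutant was thus already above every array of the heated wild type, and only the double mutant groups overlapped. Heat raised it by 3.44 ± 0.23 (SE) in the wild type, whereas the change in the double mutant was 0.34 ± 0.19 (adjusted p = 0.209). The responses differed by -3.10 ± 0.30 (adjusted p = 0.00857), and by -3.37 without heated double mutant replicate 3 (adjusted p = 5.87e-05). Without untreated wild type replicate 2 the same test gave -2.84 and missed the threshold (adjusted p = 0.0509). Its probe set is of the kind that can match several transcripts, so its signal may include related ones.

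UPOX (AT2G21640), a small mitochondrial protein whose transcript is a widely used marker of oxidative stress, read 7.08 and 7.07 in the untreated and 10.41, 10.55 and 10.74 in the heated wild type. In the double mutant it read 9.84, 9.85, 10.16 and 10.03 without heat and 11.11, 10.95 and 11.63 after it. No groups overlapped, and the untreated double mutant lay below the heated wild type but far above the untreated wild type. UPOX rose by 3.49 ± 0.18 (SE) in wild-type plants and by 1.26 ± 0.15 in the double mutant, a difference of -2.23 ± 0.24 (adjusted p = 0.00857) that was -2.43 without heated double mutant replicate 3 (adjusted p = 0.000244). It did not pass without untreated wild type replicate 1 (-2.23, adjusted p = 0.0556) or replicate 2 (-2.23, adjusted p = 0.0532). After heat the genotypes differed by 0.67 (adjusted p = 0.0938), against 2.89 before it.

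NDB4, an alternative NAD(P)H dehydrogenase on the outer face of the inner mitochondrial membrane, followed another course: it was high in the untreated double mutant and fell there with heat. It read 6.73, 6.54, 6.86 and 7.09 in the untreated and 5.07, 5.47 and 5.35 in the heated double mutant, so it fell by 1.51 ± 0.15 (SE). The wild type stayed under the array median, at 3.97 and 4.26 without heat and 4.20, 4.07 and 4.41 after it, where its groups overlapped. The responses differed by -1.62 ± 0.23 (adjusted p = 0.0383), and the genotypes remained apart after heat by 1.07 ± 0.16 (adjusted p = 0.0126). NDB4 kept its call without untreated double mutant replicate 2 and heated double mutant replicate 3 and lost it without each of the other arrays, with estimates of -1.77 to -1.48 and adjusted p up to 0.171. It also missed the threshold when the reference genes set the centre (-1.44, adjusted p = 0.0920). Setting all values under the array median to that median gave -1.45 (adjusted p = 0.0161). The double mutant group means were above the median, although heated replicate 1, at 5.07, was just under that of its array, 5.13. The wild type's share of the difference was not measured above the median.

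Of the 12 measured genes on the list of mitochondrial dysfunction and alternative respiration, 3 passed the test, against 0.0747% of all probe sets, and all 3 were negative. The list median of the difference was -1.24, against -0.03 over all probe sets. Estimates were negative for 11 of 12, against 12619 of 22746 over all probe sets. The median genotype difference of the list was 2.63 without heat and 0.81 with it. The list was drawn up with earlier results of these data known, so its direction is not independent evidence. Among members that did not pass, the related dehydrogenase NDB3 had -1.62 ± 0.30 (adjusted p = 0.114), and read 7.14, 6.84, 7.65 and 7.55 in the untreated and 5.79, 6.23 and 5.90 in the heated double mutant against 4.82 and 4.64 and 4.97, 4.82 and 5.28 in the wild type. The MATE-family transporters AT2G04070 and AT2G04050 had -1.74 ± 0.31 (adjusted p = 0.0993) and -1.58 ± 0.31 (adjusted p = 0.138). These are close relatives, so the probe sets may share signal, and both wild type groups of AT2G04050 were at the floor.

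Other members of the list had smaller differences of responses. AT5G09570, a small cysteine-rich mitochondrial protein, had group means of 4.68 and 5.30 in the untreated and heated wild type and of 9.32 and 9.66 in the double mutant, with a difference of -0.29 ± 0.20 (adjusted p = 0.655). A transcript could therefore be far higher in the double mutant and still have a difference of responses that did not pass the test. The mitochondrial small heat shock protein AT5G51440 rose by 7.96 in wild-type plants and 7.06 in the double mutant, with a difference of -0.91 ± 0.24 (adjusted p = 0.260), and started from 3.90 in the wild type, close to the lower quartile. NDB1, NDB2, NDC1 and AT5G64400 had differences of 0.12, -0.51, -0.27 and -0.09, none past the test.

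**Figure D2:**
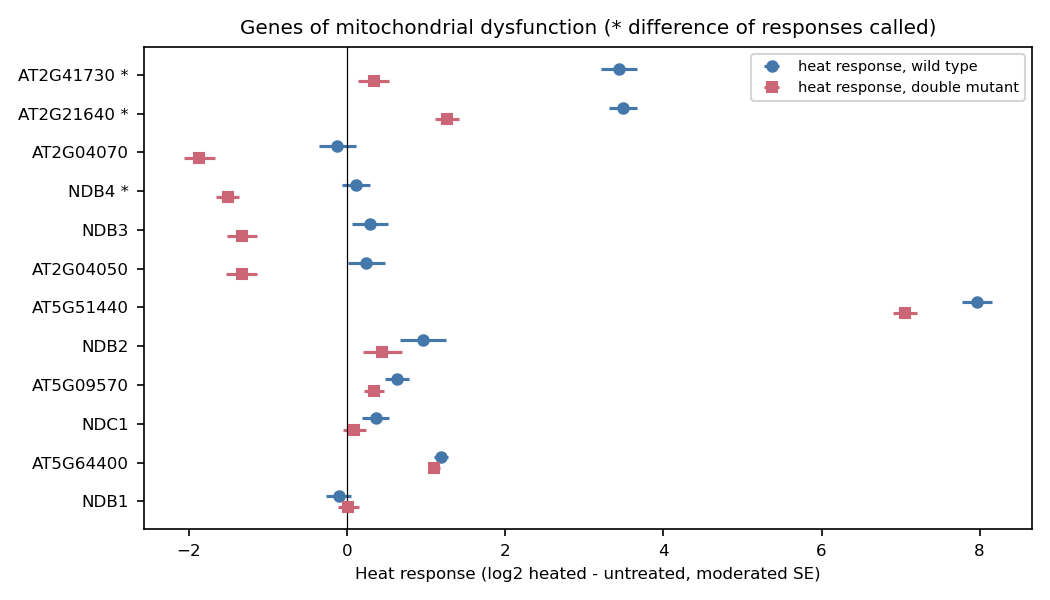
The log2 heat response of each of the 12 measured genes on the mitochondrial dysfunction list is drawn for the wild type (circles) and the double mutant (squares), with bars of 1 moderated SE. Stars mark the 3 genes whose difference of responses passed the test, for which the double mutant's point lies to the left of the wild type's.

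Among the other probe sets with every group above the array median, AT3G03270, a universal stress protein, rose in both genotypes. It read 7.27 and 7.06 in the untreated wild type, 10.82, 10.85 and 10.99 in the heated wild type, 8.87, 8.79, 9.13 and 8.99 in the untreated double mutant and 11.38, 11.32 and 11.42 in the heated double mutant. No groups overlapped, and the double mutant was above the wild type at both temperatures. The rises were 3.72 ± 0.11 and 2.43 ± 0.10 (SE) in wild type and double mutant, which differed by -1.30 ± 0.15 (adjusted p = 0.0139). The call was lost in 2 of the 12 fits that left out 1 array, those without untreated wild type replicate 2 (-1.19, adjusted p = 0.0693) and without heated double mutant replicate 2 (-1.27, adjusted p = 0.0539).

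AT5G14520, a pescadillo-like protein that acts in ribosome biogenesis, was at 8.34 and 8.30 in the untreated wild type and 9.56, 9.52 and 9.54 in the heated. The double mutant had 9.12, 9.07, 9.20 and 9.31 without heat, above the untreated wild type, and 9.61, 9.67 and 9.55 with heat, overlapping the heated wild type. Its rise was 1.22 ± 0.09 (SE) in wild-type plants and 0.43 ± 0.08 in the double mutant, a difference of -0.79 ± 0.12 (adjusted p = 0.0449). AT5G14520 kept its call without heated double mutant replicate 3 and lost it without each of the other arrays, with estimates of -0.82 to -0.74 and adjusted p up to 0.196. It was not called after quantile normalization, median centring or reference gene centring, at -0.61, -0.71 and -0.60 (adjusted p = 0.238, 0.0856 and 0.161), and likewise in a moderation with a trend (adjusted p = 0.120). The probe set 248101_at, which has no gene in the annotation, was also higher in the untreated double mutant, at 7.82, 7.81, 7.86 and 8.07 against 6.03 and 6.15. Heat raised it in the wild type to 7.06, 7.25 and 7.09, while the heated double mutant read 7.85, 7.72 and 7.76, within the range of the untreated one or below it. The responses differed by -1.16 ± 0.14 (adjusted p = 0.0146). 248101_at lost its call without untreated wild type replicate 1, untreated wild type replicate 2, heated wild type replicate 2 and heated double mutant replicate 2, with estimates of -1.22 to -1.09 and adjusted p up to 0.0966 over the 12 fits with 1 array left out. Centring on the reference genes gave -0.97 and no call (adjusted p = 0.0827).

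The single positive difference above the array median was that of 262566_at, a probe set without a gene name. It stood at 10.83 and 10.52 in the untreated wild type, well above the 8.86, 8.55 and 8.97 of the heated wild type and the 8.81, 8.91, 9.17 and 8.79 of the untreated double mutant. The heated double mutant read 8.66, 8.53 and 8.76 and overlapped the heated wild type. The transcript fell by 1.88 ± 0.16 (SE) in wild-type plants and changed by -0.28 ± 0.13 (adjusted p = 0.130) in the double mutant, where it was already low. The difference was 1.61 ± 0.20 (adjusted p = 0.0204). 262566_at kept its call without heated wild type replicate 3, untreated double mutant replicate 1, untreated double mutant replicate 3 and heated double mutant replicate 3 and lost it without each of the other arrays, with estimates of 1.45 to 1.76 and adjusted p up to 0.124.

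For 2 genes the order of the genotypes turned over with heat. AT3G51950, a zinc finger protein of the CCCH type with an RNA-binding domain, read 8.39 and 8.48 in the untreated and 8.52, 8.54 and 8.44 in the heated wild type, groups that overlapped and differed by 0.07 ± 0.10 (adjusted p = 0.677). In the double mutant it fell from 8.77, 8.91, 8.86 and 8.90 to 7.97, 7.84 and 8.10, so that it lay above the wild type before heat and below it after, with no overlap. The difference of responses was -0.96 ± 0.13 (adjusted p = 0.0238). AT3G51950 kept its call without untreated double mutant replicate 1 and heated double mutant replicate 3 and lost it without each of the other arrays, with estimates of -1.03 to -0.90 and adjusted p up to 0.145. After quantile normalization and with centring on the array median or the reference genes it was -0.80, -0.88 and -0.78 (adjusted p = 0.0589, 0.0881 and 0.0827), and it was not called either in a moderation with a trend (adjusted p = 0.0630). AT3G57880, a membrane protein with several C2 domains, rose in both genotypes, from 6.20 and 6.08 to 9.68, 9.59 and 9.54 in wild-type plants and from 6.53, 6.48, 6.53 and 6.66 to 9.27, 9.07 and 9.17 in the double mutant. It too was higher in the double mutant before heat and lower after it. Its responses differed by -0.85 ± 0.12 (adjusted p = 0.0444). AT3G57880 kept its call without heated double mutant replicate 3 and lost it without each of the other arrays, with estimates of -0.91 to -0.79 and adjusted p up to 0.196. The same 3 scalings gave -0.68, -0.77 and -0.66 (adjusted p = 0.0883, 0.0881 and 0.125) and a trend gave an adjusted p of 0.134, so none of these called it.

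**Figure D3:**
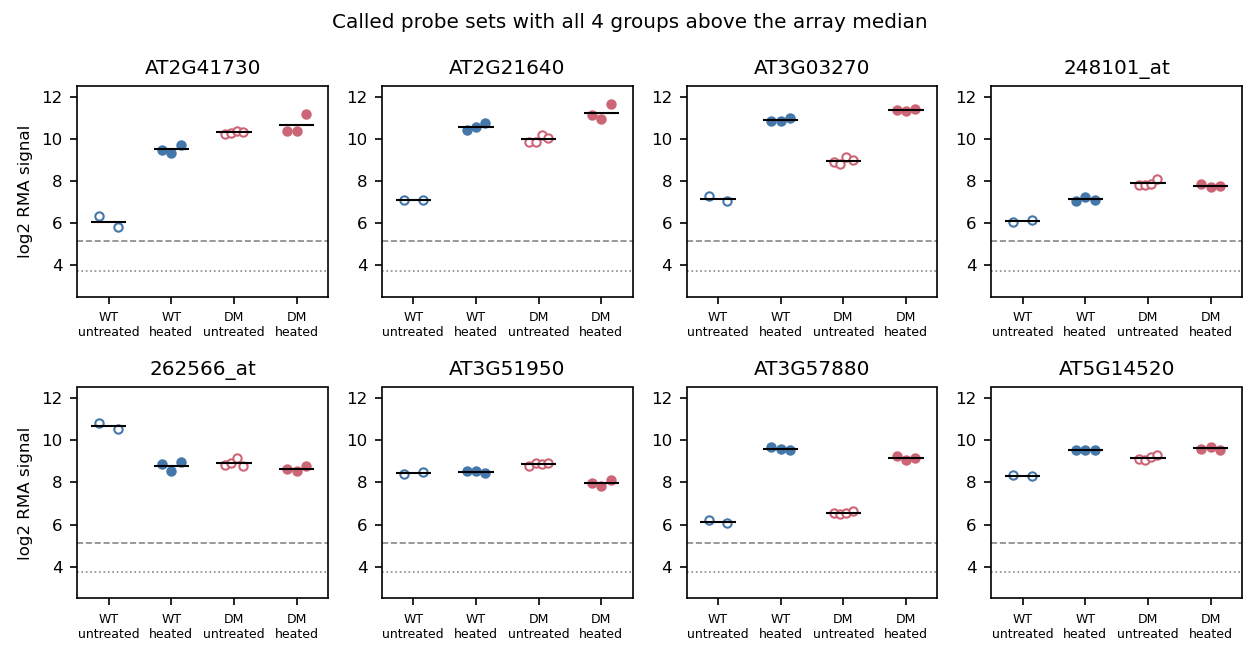
Log2 RMA signal of each array (points) and group means (bars) for the 8 probe sets that passed the test with all 4 group means above the array median; dashed and dotted lines mark the mean array median and lower quartile. In 6 panels the untreated wild type is the lowest group, and in the panel of 262566_at it is the highest.

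The other 9 probe sets had at least 1 group under the array median, where a signal need not come from the transcript. Setting all values under the lower quartile of their array to that quartile and refitting kept 16 of the 17 calls, and doing so at the array median kept 13. When the group at the floor lies at the far end of a change, the true log2 change may be larger than measured, so the estimate with values floored at the lower quartile is a lower bound on its size. By the group means this held for AT3G28550, 257336_at and AT2G03130 with the lower quartile as the floor, at 3.14, 1.25 and -1.54. For 249659_s_at the floored estimate of 1.17 was an upper bound, and for AT3G61840 neither size nor sign was bounded. All of these bounds rest on the convention. For 257336_at, AT2G03130 and 249659_s_at a wild type group that would undo the bound lay just above the lower quartile, with means of 3.82, 3.84 and 3.76. For AT3G28550 that group was the heated double mutant, with a mean of 4.01, and its arrays overlapped those of the untreated double mutant. With the array median as the floor, 261192_at had a lower bound and the other 8 had none in either direction.

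AT3G28550, a proline-rich protein like the extensins of the cell wall, had the largest positive difference of all probe sets. It was measured at 7.25 and 6.48 in the untreated wild type, and at 3.79, 3.70 and 4.39 in the heated wild type, 3.34, 3.71, 3.96 and 3.71 in the untreated and 3.88, 4.08 and 4.07 in the heated double mutant. Only the untreated wild type was above the array median, and the other 3 groups overlapped. With heat it fell by 2.90 ± 0.25 (SE) in the wild type, and the double mutant changed by 0.33 ± 0.21 (adjusted p = 0.272) from a group mean under the lower quartile. The difference was 3.23 ± 0.33 (adjusted p = 0.00857), 3.14 with values floored at the lower quartile (adjusted p = 0.0120) and 1.67 floored at the median (adjusted p = 0.0168). It was the only one of the 17 to pass in every alternative run for it, the 12 fits without 1 array included.

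The probe set 257336_at, without a gene name, was the clearest case of genotypes that were alike before heat and apart after it. Its untreated arrays were at the floor or next to it, at 3.93 and 3.71 in wild-type plants and 3.84, 3.59, 3.62 and 3.56 in the double mutant, and overlapped. After heat it read 5.31, 5.50 and 5.28 in wild-type plants and 6.46, 6.60 and 6.43 in the double mutant, apart by 1.13 ± 0.10 (SE, adjusted p = 0.00128) and above the array median on every one. The difference of responses was 1.30 ± 0.15 (adjusted p = 0.0139) and 1.02 floored at the median (adjusted p = 0.00512). 257336_at lost its call without untreated wild type replicate 1, untreated wild type replicate 2, heated wild type replicate 1 and heated double mutant replicate 2, with estimates of 1.19 to 1.41 and adjusted p up to 0.0966 over the 12 fits with 1 array left out. Since the untreated levels are bounds, the heat responses of both genotypes are lower bounds, and the gap after heat does not rest on them. The difference of responses has no firm bound, because the untreated wild type also lay next to the floor.

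Another 2 probe sets had their signal mainly in the untreated double mutant. AT2G03130 read 6.06, 5.79, 5.83 and 5.42 there, against 3.60 and 3.74 in the untreated wild type, 3.66, 3.87 and 3.98 in the heated wild type and 4.15, 4.38 and 4.52 in the heated double mutant. The difference was -1.58 ± 0.23 (adjusted p = 0.0408) but -0.63 floored at the median, where it was no longer called (adjusted p = 0.253). AT2G03130 kept its call without untreated double mutant replicate 1, untreated double mutant replicate 4 and heated double mutant replicate 3 and lost it without each of the other arrays, with estimates of -1.70 to -1.49 and adjusted p up to 0.171. Its call was lost after quantile normalization (-1.48, adjusted p = 0.0883) and median centring (-1.51, adjusted p = 0.0856). The unnamed 262518_at read 6.51, 6.07, 6.70 and 6.47 in the untreated and 3.86, 4.14 and 4.39 in the heated double mutant, and 4.51 and 4.17 and 3.67, 3.79 and 3.93 in the untreated and heated wild type. Its heated groups overlapped and its untreated groups did not. The difference of -1.77 ± 0.25 (adjusted p = 0.0408) was still called floored at the median (-1.29, adjusted p = 0.0291). 262518_at kept its call without untreated double mutant replicate 2 and heated double mutant replicate 3 and lost it without each of the other arrays, with estimates of -1.93 to -1.60 and adjusted p up to 0.184. Quantile, median and reference gene scaling each ended the call, with -1.70, -1.69 and -1.58 (adjusted p = 0.0634, 0.0624 and 0.0796).

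The unnamed 261192_at had the same order of groups as UPOX: 4.77 and 4.91 in the untreated wild type, 8.08, 8.53 and 8.54 in the heated, 6.76, 6.72, 7.45 and 7.03 in the untreated double mutant and 8.65, 8.83 and 8.73 in the heated. No groups overlapped, and only the untreated wild type was under the array median. The difference of -1.80 ± 0.27 (adjusted p = 0.0449) kept its size but not its call when values were floored at the lower quartile (-1.80, adjusted p = 0.0589) or the median (-1.52, adjusted p = 0.0728). 261192_at kept its call without untreated double mutant replicate 3 and heated double mutant replicate 3 and lost it without each of the other arrays, with estimates of -1.95 to -1.65 and adjusted p up to 0.185. It was not called after quantile normalization, median centring or centring on the reference genes, at -1.73, -1.72 and -1.62 (adjusted p = 0.0883, 0.0624 and 0.0965).

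The probe set 249659_s_at matches the 2 loci AT5G36800 and AT5G36710 and cannot be assigned to either. It fell from 6.40 and 6.05 to 3.75, 3.72 and 3.82 in wild-type plants and from 5.20, 4.99, 5.14 and 4.92 to 3.73, 3.82 and 3.66 in the double mutant. Both genotypes ended next to the lower quartile and overlapped there, so the falls of both may be cut short by the floor. The difference was 1.13 ± 0.16 (adjusted p = 0.0365). By the convention only the heated double mutant was at the floor, which makes the estimate floored at the lower quartile, 1.17, an upper bound. The heated wild type mean of 3.76 was just above the lower quartile, so this bound is not firm. 249659_s_at kept its call without untreated double mutant replicate 1 and heated double mutant replicate 3 and lost it without each of the other arrays, with estimates of 0.96 to 1.31 and adjusted p up to 0.145. The unnamed 248888_at read 5.49, 5.25 and 5.49 in the heated wild type and 4.06 and 4.18 in the untreated, while the double mutant read 4.13, 4.26, 4.50 and 4.53 without heat and 4.51, 4.35 and 4.51 with it. Only the heated wild type was above the array median, by little, and the difference of -1.18 ± 0.17 (adjusted p = 0.0449) was -0.41 and not called floored at the median (adjusted p = 0.126). 248888_at kept its call without untreated double mutant replicate 1 and heated double mutant replicate 3 and lost it without each of the other arrays, with estimates of -1.26 to -1.12 and adjusted p up to 0.185. Quantile, median and reference gene scaling left it without a call, at -1.20, -1.10 and -0.99 (adjusted p = 0.0511, 0.0856 and 0.119).

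AT3G61840 rested on the floor altogether. Its arrays read 4.57 and 4.46 in the untreated wild type, 3.67, 3.66 and 3.64 in the heated wild type, 3.85, 3.55, 3.52 and 3.54 in the untreated and 3.70, 3.77 and 3.61 in the heated double mutant. All 4 group means were under the array median and 3 under the lower quartile. The difference of 0.94 ± 0.14 (adjusted p = 0.0449) became -0.0790 when floored at the median (adjusted p = 0.253), with the sign turned. AT3G61840 kept its call without untreated double mutant replicate 1 and heated double mutant replicate 3 and lost it without each of the other arrays, with estimates of 0.89 to 1.02 and adjusted p up to 0.195. It was not called after quantile normalization (0.90, adjusted p = 0.0798).

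**Figure D4:**
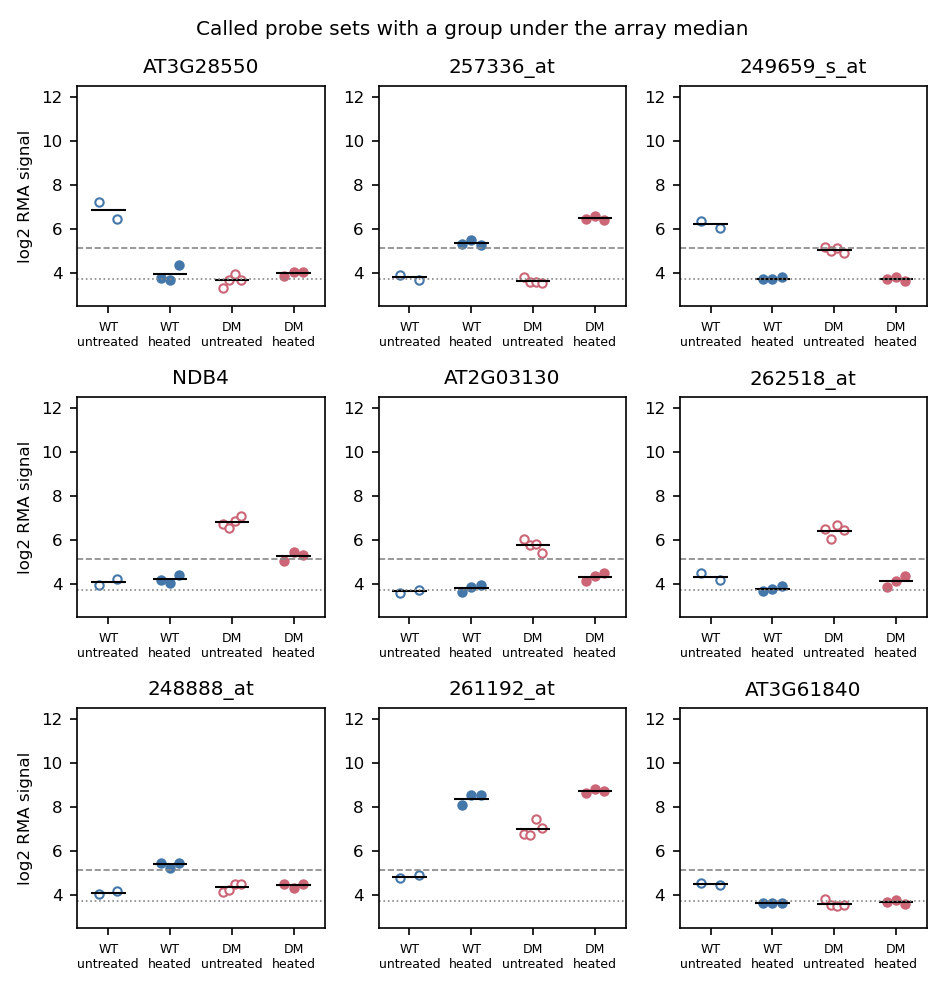
Log2 RMA signal of each array (points) and group means (bars) for the 9 probe sets that passed the test with a group mean under the array median; dashed and dotted lines mark the mean array median and lower quartile. In the panel of AT3G28550 only the untreated wild type lies above the dashed line, and in that of AT3G61840 no group does.

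A log2 difference compares ratios, and the size of a rise in signal can rank the genotypes otherwise. On the linear scale, tried after the log2 results were seen and given without a test, 15 of the 17 differences had the same sign and 2 the opposite one. The linear mean of UPOX rose by 1386 units in wild-type plants and 1448 in the double mutant, from 135 and 1005, a difference of 62.2 ± 381 (SE). AT3G03270 rose by 1752 and 2156 units, which is more in the double mutant by 404 ± 92.4. For AT2G41730 the rises were 655 and 386 units, and the difference of -269 ± 333 was within its error. The smaller log2 rise of these 3 transcripts in the double mutant thus goes with a higher start, and a smaller rise in signal units was not shown. The linear difference of 261192_at was also within its error, at -12.3 ± 40.6. AT5G14520 and AT3G57880, which rose in both genotypes too, did have smaller linear rises in the double mutant, with differences of -223 ± 29.8 and -227 ± 32.0. The highest group mean of the 17 was 11.37, below the brightest signals of the arrays.

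Just outside the threshold lay AT5G59170, a gene of the same extensin-like kind as AT3G28550, with the smallest adjusted p that did not pass, 0.0538. The largest adjusted p that did pass was 0.0449. AT5G59170 was well above the floor, at 8.91 and 8.79 in the untreated and 7.58, 7.30 and 7.81 in the heated wild type, and at 7.18, 7.23, 7.59 and 7.03 and 7.32, 7.44 and 7.47 in the untreated and heated double mutant. As with AT3G28550, the untreated wild type was the one high group, the other 3 overlapped, and the difference was 1.44 ± 0.22. After centring on the reference genes it was 1.62 and passed (adjusted p = 0.0292).

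Several large differences did not pass the test among named genes with no group at the floor, some with a group under the array median. The orphan gene QQS, a regulator of carbon and nitrogen allocation, had the most negative of them, -2.85 ± 0.92 (adjusted p = 0.322), but its heated wild type read 5.77, 8.88 and 8.50, with 1 array near the level of the other groups. DFR, the dihydroflavonol reductase of anthocyanin synthesis, had -2.04 ± 0.43 (adjusted p = 0.174): it read 8.06, 9.05, 9.58 and 8.58 in the untreated double mutant against 6.67 and 6.78 in the untreated wild type. Heat took it to 4.34, 3.96 and 3.88 in wild-type plants and 4.25, 4.05 and 4.05 in the double mutant. Both genotypes thus ended at nearly the same low level, under the array median. With the median as the floor neither the size nor the sign of the DFR difference was bounded. The estimate floored there was -2.07 (adjusted p = 0.111). PYK10 was likewise highest in the untreated double mutant, at 7.47, 8.69, 8.88 and 8.24 against 6.82 and 6.38 in the untreated wild type, with a difference of -1.40 ± 0.45 (adjusted p = 0.318). The AP2/ERF transcription factor AT4G28140 had 2.07 ± 0.59 (adjusted p = 0.277), with heated wild type arrays at 4.75, 6.22 and 5.26. The other 5 named genes with large positive estimates were AT3G04010 (1.25), AT2G21180 (1.22), AT4G28310 (1.14), AT1G20030 (1.13) and AT3G27930. For AT3G27930 the adjusted p was 0.299. On the negative side were AT3G17130 (-1.60), AT1G03660 (-1.39) and the jacalin-related lectin JAL33 (-1.36). AT1G03660 had 3 groups under the array median, and its difference was only -0.51 with values floored there.

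No organellar transcript measured under a name passed the test for a difference, although transcripts of the mitochondrial genome and of its copy in chromosome 2 had positive median heat responses in both genotypes. The 16 measured genes of the mitochondrial genome had a median response of 3.17 in wild-type plants and 2.70 in the double mutant. Their median difference was -0.11, with 11 of 16 negative, against 12619 of 22746 over all probe sets. With centring on the reference genes this median became 0.07. The 34 measured genes of the mitochondrial DNA copy inserted in chromosome 2, whose probe sets may also read mitochondrial transcripts, had median responses of 1.07 and 1.96 and a median difference of 0.21 and spread from -1.56 to 2.15. At the positive end AT2G07721 read 4.89, 5.08 and 4.94 in the heated wild type and 7.72, 7.66 and 6.32 in the heated double mutant, with a difference of 2.15 ± 0.42 (adjusted p = 0.131). The untreated groups of AT2G07721 were alike, with means of 4.15 and 4.26. AT2G07719 and AT2G07728 had differences of 1.52 ± 0.29 (adjusted p = 0.122) and 1.45 ± 0.35 (adjusted p = 0.211). At the negative end AT2G07722 went from 4.90 to 10.12 in wild-type plants and from 7.49 to 11.16 in the double mutant, a difference of -1.56 ± 0.29 (adjusted p = 0.114).

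Plastid and photosynthesis transcripts had mostly negative estimates and not a single call. Of 69 measured plastid genes 64 had a negative estimate, with a median of -0.43 and 17 with an unadjusted p under 0.05. Over all 22746 probe sets 12619 estimates were negative and 2372 had such a p. Under the 3 other scalings the plastid median stayed negative, at -0.22 to -0.36, with 56 to 63 negative estimates. The photosystem II subunit psbT had the smallest p, with a difference of -1.70 ± 0.31 (adjusted p = 0.114): it read 6.28, 6.47 and 6.97 in the heated wild type, above 5.68, 5.50 and 4.98 in the heated double mutant and all untreated arrays. The 7 nuclear photosynthesis genes had a median of -0.35, with 6 negative, which was -0.04 after quantile normalization (5 negative) and -0.17 with centring on the reference genes, and the photosystem I subunit PSAE-1 had -0.39 ± 0.13 (adjusted p = 0.316). All 7 tubulins, the subunits of microtubules, had negative estimates, with a median of -0.58 and no call (6 of 7 negative under each other scaling), led by TUA6 at -0.64 ± 0.14 (adjusted p = 0.181). The 5 reference genes, which are used for their even levels, also all had negative estimates, with a median of -0.13, which turned to 0.06 after quantile normalization between arrays.

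Chaperones, the core of the heat response, gave no call. None of 9 measured small heat shock proteins passed, and their median response was 7.96 in wild-type plants and 7.23 in the double mutant, with a median difference of -0.23 that was -0.04 with centring on the reference genes. Of 6 large chaperones and co-chaperones none passed, with a median of -0.25 (-0.07 with that centring); the one with the smallest p, the heat-stress-associated protein HSA32, had 0.98 ± 0.31 (adjusted p = 0.313). The 7 measured genes of protein folding in the endoplasmic reticulum had a median of 0.00650 (0.18 after quantile normalization and 0.19 with reference gene centring), and the 8 nuclear genes of oxidative phosphorylation one of -0.09, both without calls; the last turned to 0.02 after quantile normalization and 0.10 with centring on the reference genes. The cytochrome c gene CYTC-2 had the smallest p of that list, with -0.45 ± 0.11 (adjusted p = 0.236). The standard error of the difference had a median of 0.18, so small differences between the genotypes in such lists were not detectable with these arrays. Of the 9 small heat shock proteins, 2 had at least 1 group at the floor, and AT5G47600 stayed at 3.37 to 3.85 on all arrays. AT1G53540 read 13.53 to 13.75 on the heated arrays, near the brightest signals. Whether limits at either end of the range hid a difference was not tested.

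No call was made either in the other lists with at least 5 measured genes. Their medians were -0.39 over 7 genes of flavonoid synthesis, 0.02 over 18 expansins, 0.02 over 9 xyloglucan endotransglucosylases and 0.08 over 47 UDP-glycosyltransferases. They were -0.04 over 13 glutathione transferases, 0.06 over 26 cytochrome P450 enzymes, 0.08 over 14 SWEET sugar transporters, 0.13 over 6 WRKY factors and -0.14 over 10 autophagy genes. In most of these lists some members were at the floor, for example 13 of the UDP-glycosyltransferases. Centring on the reference genes raised all of these medians and turned those of the glutathione transferases and autophagy genes positive (0.15 and 0.05). Members with the smallest p were EXPA8 (-1.28, adjusted p = 0.226), UGT73C1 (0.88, adjusted p = 0.260), XTH19 (0.55, adjusted p = 0.297) and CYP71B38 (0.40, adjusted p = 0.285). Of the smaller lists only the extensin-like pair had a call, that of AT3G28550, and the others included 4 antioxidant enzymes at a median of -0.24 and 4 genes of cold and abscisic acid responses at 0.61. The 2 measured genes on the list of organelle DNA maintenance had a median of -0.65, with OSB1 at -0.14 and the leucine-rich repeat protein DRT100 at -1.16. The 3 senescence genes had 0.70, the 2 defence genes -0.94, the clock gene GI 0.28 and the factor NAC014 -0.20. Heat shock factors, DNA damage genes, jasmonate genes and flower markers were not measured under the listed names, and MSH1 and RECA3 were not analysed here.

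The number of calls moved with single arrays. Leaving out 1 array gave between 1 and 66 calls: 5 without untreated wild type replicate 1, 1 without replicate 2, and 6, 5 and 8 without heated wild type replicates 1, 2 and 3. The counts were 14, 8, 9 and 7 without untreated double mutant replicates 1 to 4, and 6, 3 and 66 without heated double mutant replicates 1, 2 and 3. Without untreated wild type replicate 2 the 1 call left was AT3G28550. All 17 calls were kept without heated double mutant replicate 3, the array that stood apart, and 49 probe sets were added, which brought the share to 0.290% of all. For 31 of the 49 that array lay nearer to the heated wild type mean than to the mean of the other heated double mutant arrays. The same was true of 4 of the 17. The 49 were selected by passing only without that array and the 17 by passing with it. These counts therefore follow in part from the selection, and the share over all probe sets was not computed. Why replicate 3 stood apart was not tested.

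**Figure D5:**
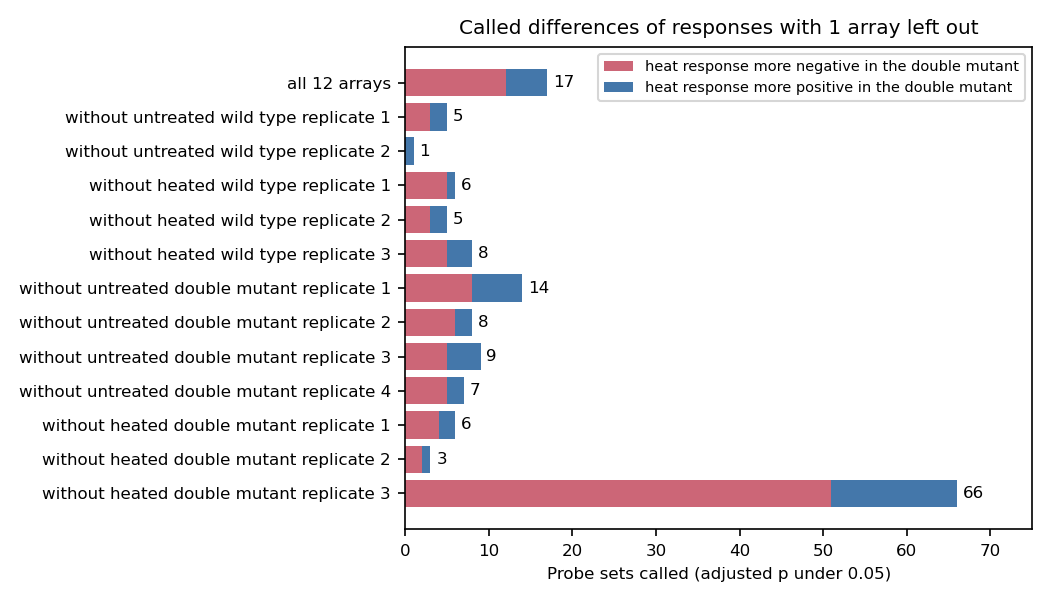
Bars give the number of probe sets whose difference of responses passed the test with all 12 arrays and with each array left out, split into differences that are more negative and more positive in the double mutant. The count falls to between 1 and 14 without 11 of the arrays and rises to 66 without heated double mutant replicate 3.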

How the data were processed

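The deposited values were log2 signals per probe set, made by the authors with RMA from the affy package, per the submitters' processing notes, with versions and build not given in the sources used here. RMA corrects background, normalizes quantiles across arrays and summarises probes, so every value depends on all arrays. Of the probe sets, 64 Affymetrix controls were left out, and in the platform annotation, which can be old, 13513 of the rest have 1 gene, 503 have several and 8730 have no gene. Of the 1-gene probe sets 13436 matched RefSeq TAIR10.1.

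A limma model with 1 mean per group was fitted to all 12 arrays (8 residual and 3.22 prior degrees of freedom), and the difference of responses was tested two-sided with Benjamini-Hochberg adjustment over all 22746 probe sets at 0.05. Errors of log2 differences are moderated SE, and those on the linear scale come from the spread of arrays within each group, without moderation. The untreated wild type, with 2 arrays, took its spread from all groups, and the number of arrays limits the precision. P-values measure the spread between these samples, whose sources the labels do not detail. Replicate numbers were not taken to pair arrays, since the residuals of same-numbered arrays correlated between -0.348 and 0.265, with 3 of 15 pairs above 0.1. No arrays held identical values, and the labels name no batch.

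The members, gene lists and tests were chosen with earlier results of these data known. Named were all called probe sets, the 10 largest uncalled differences per direction by floored estimate among 1-gene probe sets above the floor with an unadjusted p under 0.01, the list member with the smallest p, and reference genes. Lists used 1 probe set per gene and no set test. Alternatives were other scalings, floors, filters and moderation, array weights, a replicate block and leaving out each array, and, chosen after seeing the data, the linear scale. The fit ran in limma 3.58.1 under R 4.3.3 and was tested on simulated data; figures were drawn with matplotlib 3.10.9, NumPy 2.4.6 and pandas 2.3.3 under Python 3.11.15.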

Additional observations from a re-analysis of the deposited data

Results flagged for a closer look

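The responses of the genotypes differed by the test of the difference itself for 17 probe sets, given here as the log2 response of the double mutant minus that of the wild type. Negative were AT2G41730 (-3.10), AT2G21640 (-2.23), AT3G03270 (-1.30), 248101_at (-1.16), AT3G51950 (-0.96) and NDB4 (-1.62), and further AT2G03130 (-1.58), 262518_at (-1.77), AT3G57880 (-0.85), 248888_at (-1.18), 261192_at (-1.80) and AT5G14520 (-0.79). Positive were AT3G28550 (3.23), 257336_at (1.30), 262566_at (1.61), 249659_s_at (1.13) and AT3G61840 (0.94).

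One array stood away from the rest of its group: AT3G61840 read 3.85 in untreated double mutant replicate 1, against 3.55, 3.52 and 3.54 in the others, all near the lower quartile of the arrays. It was 1 of 65 named probe sets looked at in the group of 4 arrays. Chance alone marks about 1 in 20 groups in this way.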

How the results depend on the processing

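The count of 17 calls fell to 9 (4 positive, 5 negative) after quantile normalization between arrays, to 10 (5 and 5) with arrays centred on their median, to 7 among the upper 0.5 of probe sets by mean, and to 11 with 1 probe set per named gene. It rose to 27 with values floored at the lower quartile, 63 floored at the median and 34 with array weights. With the replicate block it was 5, of which 4 were among the 17. Leaving out 1 array gave 1 to 66. Centring on reference genes gave 13 (9 positive, 4 negative). It stayed within 1.5 times with a trend (16), robust moderation (17), single-transcript probe sets (15), probe sets above the lower quartile on at least 2 arrays (15) and a size of at least 1 (13). Of the 17, 12 had no group at the floor, 8 with the median as the floor and 12 with 1 floor for all arrays. Direction reversed on the log2 scale for AT3G61840 floored at the median (-0.0790), and on the linear scale for AT2G21640 (62.2 signal units) and AT3G03270 (404). Only AT3G28550 passed in every alternative run for it. Over all named probe sets and alternatives 1305 values were classed as unchanged, 171 lost a call and 18 gained one. A change of sign was counted only where the probe set passed in the main or the alternative fit. The 1305 can therefore include sign changes of probe sets that were not called. The fits with 1 array less hold fewer samples, and the cause of the other changes was not tested. Signals near the floor and the 2 untreated wild type arrays limit what can be detected.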

Other observations

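The 49 probe sets that passed only without heated double mutant replicate 3 were mostly apart after heat. Leaving out a heated array changes the mean of its own group and not the untreated means, so the counts below follow in part from the selection. For 41 of them the difference between the genotypes passed the test after heat and not before it, against 6 that passed before heat only and 2 at both times, and the heated double mutant was lower than the heated wild type for 33 and higher for 10. Of the 49, 10 were positive and 39 negative, 28 had a single gene and 4 had a group at the floor. Over all probe sets the genotypes then differed after heat at 1061, or 4.66%, in place of 204, and the directions of the 1061 were not counted. The values below come from 11 arrays, chosen after the array had been seen to stand apart, and adjusted p is from limma with Benjamini-Hochberg adjustment.

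Named genes that were lower in heated double mutant replicates 1 and 2 than in the heated wild type included DRT100, a leucine-rich repeat protein first found in a screen for DNA damage tolerance, with 5.48, 4.87 and 7.08 in the heated double mutant and 7.30, 7.11 and 7.09 in the heated wild type. Replicate 3 lay just under the wild type range, and the difference was -1.79 ± 0.26 (adjusted p = 0.0202). EXPA8, an expansin that loosens cell walls, read 5.20, 5.15 and 5.87 and 6.89, 6.32 and 6.26 in the same groups, with a difference of -1.51 ± 0.26 (adjusted p = 0.0466). The Golgi GTPase RAB6A read 8.15, 8.08 and 8.26 against 8.79, 8.86 and 8.56, where all 3 arrays of the double mutant were lower. Its difference was -0.88 ± 0.15 (adjusted p = 0.0423).

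The transcription factor bZIP58 rose with heat in the wild type to 5.37, 5.63 and 5.94 and reached only 4.04, 4.37 and 4.78 in the double mutant, under the array median, with a difference of -1.76 ± 0.24 (adjusted p = 0.0176). Both untreated groups of bZIP58 were under the array median too, and its untreated wild type, at 3.44 and 3.62, was at the floor. In the other direction the ubiquitin protease UBP22 read 6.25, 6.08 and 5.70 in the heated double mutant and 4.99, 5.11 and 5.09 in the heated wild type, a difference of 1.03 ± 0.13 (adjusted p = 0.0150). AT2G07721, in the chromosome 2 copy of mitochondrial DNA, had 2.61 ± 0.14, and the extensin-like AT5G59170 had 1.41 ± 0.24 (adjusted p = 0.0477). For UBP22 and AT2G07721 every group but the heated double mutant was under the array median. These genes were picked after their values were seen.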
